A study of Mus musculus with 40 samples.

Results

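Growth hormone acts on the liver through its receptor and the transcription factor STAT5B, and the liver is the main source of the insulin-like growth factor 1 (IGF-1) that circulates in blood. The 10 genes described here cover that axis in order: the growth hormone receptor gene Ghr and its transducer Stat5b, the hormone gene Igf1, the binding partners Igfals, Igfbp3, Igfbp1 and Igfbp2, the feedback inhibitors Socs2 and Cish, and Hsd3b5, a steroid dehydrogenase gene of male liver. They were chosen by name, and each symbol matched 1 identifier among the 55359 that were counted. All 10 were among the 15373 genes that passed the filter on low counts.

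The RNA came from livers of male C57BL/6 mice of Charles River stock, whole tissue and 1 mouse per library. The dioxin TCDD, which binds and activates the aryl hydrocarbon receptor (AhR), was given in sesame oil by gavage every 4 days for 28 days, from 30 to 58 days of age, at 1 of 7 doses from 0.03 to 30 μg/kg. Controls received sesame oil alone, and all mice were fed ad libitum. Each of the 8 groups held 5 mice, so the 7 dose comparisons share the same 5 vehicle mice.

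In the circulation most IGF-1 is carried in a complex with IGFBP-3 and the acid-labile subunit, the product of Igfals, which prolongs its life in blood. IGFBP-1 and IGFBP-2 carry IGF-1 in smaller complexes, and hepatic Igfbp1 is known for its repression by insulin and its rise with fasting and stress. Growth hormone induces Igf1, Igfals, Socs2 and Cish through STAT5B, and the proteins of the latter pair damp the receptor's signal. In rodents the pituitary secretes growth hormone in pulses in males and more evenly in females, and STAT5B carries this pattern to sex-biased liver genes such as Hsd3b5, which is high in males.

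Libraries held 15.5 to 21.0 M counts in genes with a median of 17.45 M, and the trimmed mean of M-values (TMM) factors ran from 0.845 to 1.404. Levels are given below as CPM, the counts of a gene per 1e+06 counts of the TMM-scaled library. Hepatocyte markers were abundant in every group: 7 of the 8 genes of that list had an identifier, and their summed level was 99040 to 120258 CPM in vehicle. Replicate 1 at 30 μg/kg stood apart from the other mice of its group, with a score of 81.7 on the first principal component against 129 to 147, and values at that dose are also given without it for the members called there and wherever leaving it out moved a called change by more than 1.5-fold.

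Members of the axis were called from 1 μg/kg onward, a call being a change of at least 1.5-fold that edgeR's quasi-likelihood test put at an adjusted p below 0.05. At 0.03, 0.1 and 0.3 μg/kg 0 of 10 members were called, 0 had an unadjusted p under 0.05, and DESeq2 called 0. Of all genes tested, 0.0195%, 0.0976% and 0.468% were called at these doses. At 1 and at 3 μg/kg 1 of 10 members was called, Igfbp2, beside 2.78% and 6.75% of all genes. At 10 μg/kg 4 of 10 were called, 1 higher and 3 lower, beside 21.8% of all genes. At 30 μg/kg 8 of 10 were called, 2 higher and 6 lower, beside 42.1% of all genes, of which 23.2% of genes tested were higher and 18.9% were lower. Socs2 and Cish were the members not called at any dose.

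**Figure D1:**
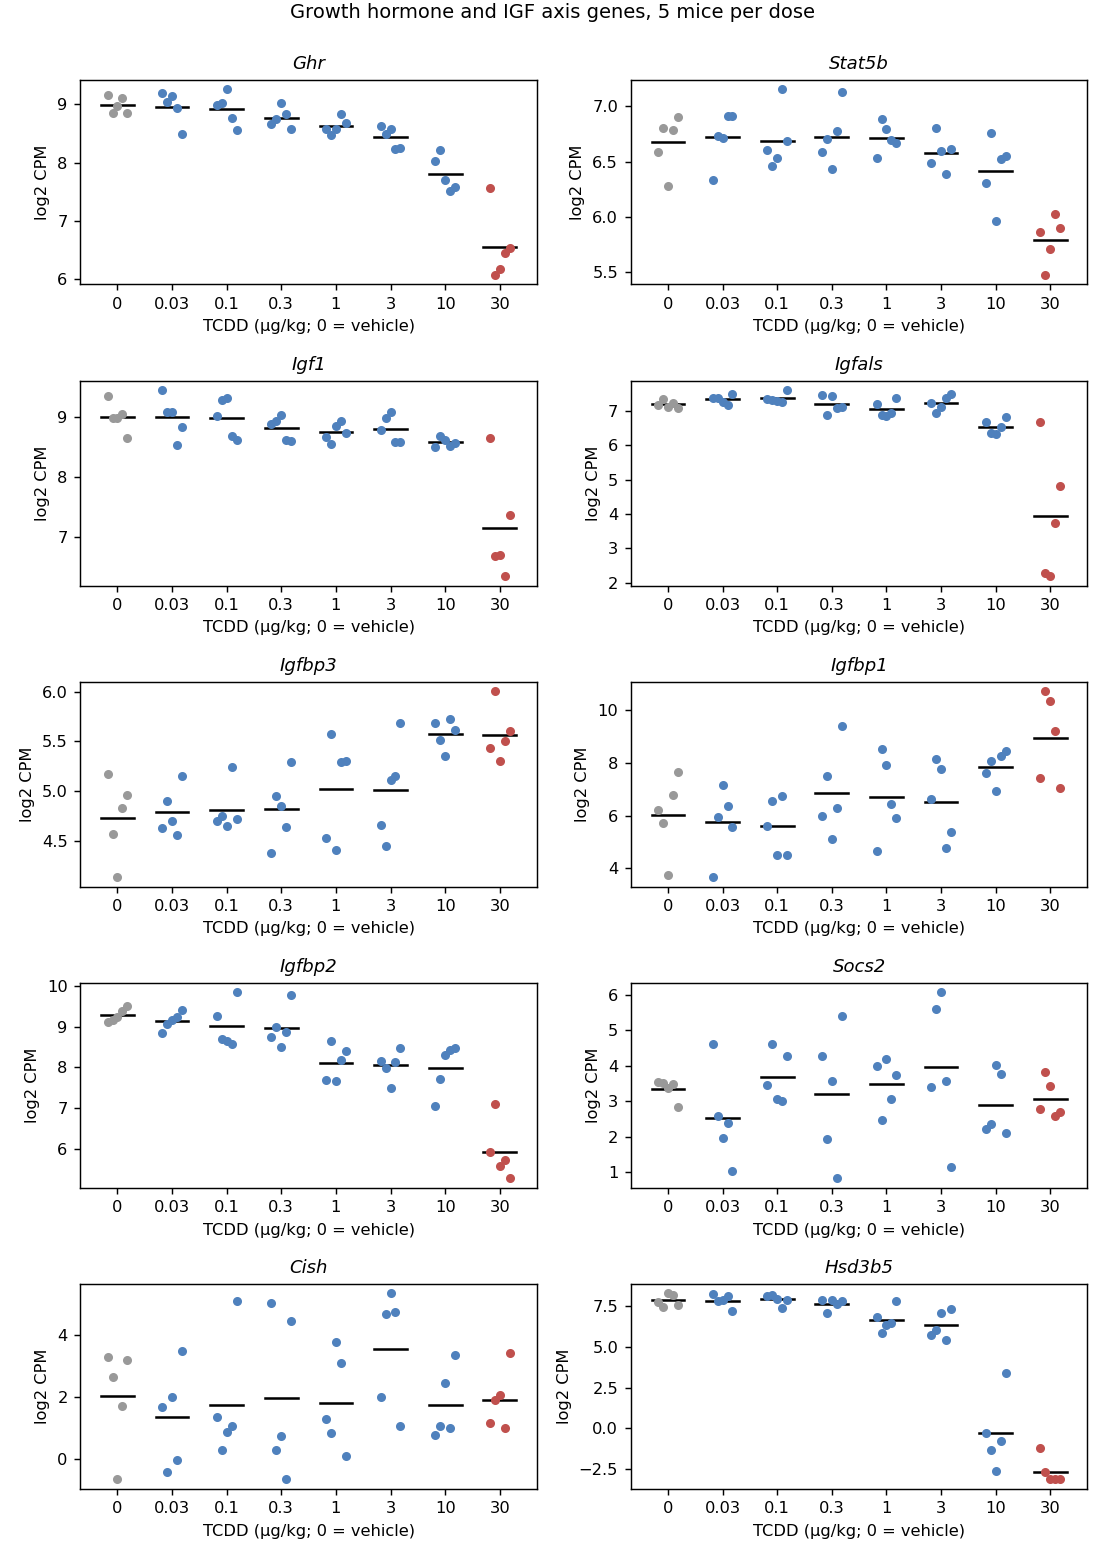
Levels of the 10 genes in every mouse, as log2 CPM with a prior count of 2 (y axis, scaled separately for each gene), against TCDD dose in μg/kg on an ordered axis, with vehicle in grey, 30 μg/kg in red and the group mean as a black line (n = 5 mice per dose). Ghr falls over the upper doses, Igf1 and Igfals are mainly low at 30 μg/kg apart from 1 mouse, and Socs2 and Cish are scattered at every dose from vehicle on.

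Expression of Ghr, the receptor at the head of the axis, was repressed by TCDD at 10 and 30 μg/kg. Its level was 570, 463, 500, 552 and 461 CPM in the 5 vehicle mice, 262, 298, 208, 183 and 191 CPM at 10 μg/kg, and 189, 67.2, 71.9, 87.2 and 92.9 CPM at 30 μg/kg. All mice at both doses lay below every vehicle mouse, and replicate 1 at 30 μg/kg lay within the range of the 10 μg/kg mice. The fold change was 2.23-fold lower at 10 μg/kg (log2 -1.16, SE 0.19, adjusted p = 6.58e-06) and 5.01-fold lower at 30 μg/kg (log2 -2.33, SE 0.19, adjusted p = 8.17e-13), by edgeR's quasi-likelihood test. In bulk RNA, fewer cells of a type and less RNA per cell cannot be told apart.

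Across the lower doses the mean of Ghr was lower at each successive dose, but no change up to 3 μg/kg was called. Mean levels were 509 ± 50.2 CPM in vehicle, 506 ± 89.9 at 0.03, 491 ± 90.4 at 0.1, 440 ± 54.5 at 0.3, 398 ± 38.4 at 1 and 349 ± 43.6 CPM at 3 μg/kg (SD, n = 5 each). Each step between neighbouring doses up to 1 μg/kg was smaller than the larger of the neighbours' SDs. At 1 and 3 μg/kg every mouse was below every vehicle mouse, yet neither dose passed the test (log2 -0.36, adjusted p = 0.365, and log2 -0.55, adjusted p = 0.0521, edgeR).

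Stat5b, which encodes the transcription factor activated by the receptor, was lower at 30 μg/kg by a smaller factor. The vehicle mice had 96.3, 112, 77.6, 110 and 119 CPM, and the 30 μg/kg mice 58.2, 44.3, 52.4, 65.3 and 59.5 CPM. The groups did not overlap, and replicate 1 was not apart from the others for this gene. The change was 1.84-fold (log2 -0.88, SE 0.15, adjusted p = 2.55e-06, edgeR). With scaling to total counts alone it was -0.39 on the log2 scale (adjusted p = 0.00695), under the 1.5-fold threshold; that scaling moved the median of all genes at 30 μg/kg from 0.03 to 0.52.

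Igf1 was repressed at 30 μg/kg, and its size there depended on 1 mouse. Its level was 646, 507, 502, 525 and 402 CPM in vehicle, 362, 409, 392, 363 and 377 CPM at 10 μg/kg, and 402, 102, 104, 81.5 and 164 CPM at 30 μg/kg. Replicate 1 at 30 μg/kg was at the level of the lowest vehicle mouse, while the other mice of that dose were below all 10 mice of the vehicle and 10 μg/kg groups. The change was 3.02-fold lower at 30 μg/kg (log2 -1.60, SE 0.25, adjusted p = 1.17e-06, edgeR) and -2.19 on the log2 scale without replicate 1. At 10 μg/kg all 5 mice were below the vehicle mean, but the change of -0.44 did not pass the test (adjusted p = 0.178, edgeR), with a 95% interval from -0.92 to 0.04.

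Igfals, whose product holds IGF-1 in the large circulating complex, showed the same split between mice at 30 μg/kg. Vehicle levels were 144, 162, 137, 148 and 134 CPM, those at 10 μg/kg 101, 82.0, 79.8, 91.7 and 112 CPM, and those at 30 μg/kg 102, 4.74, 4.46, 13.2 and 27.7 CPM. All treated mice of both doses were below every vehicle mouse, and replicate 1 at 30 μg/kg lay among the 10 μg/kg mice. The repression at 30 μg/kg was 4.77-fold (log2 -2.25, SE 0.42, adjusted p = 1.84e-05, edgeR) with replicate 1 and -3.54 on the log2 scale without it. At 10 μg/kg the log2 change of -0.64 (SE 0.40) was not called (adjusted p = 0.238, edgeR). That SE rests on a spread between mice fitted over all 8 groups, including the scattered 30 μg/kg mice.

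Igfbp3, which encodes the third partner of that complex, was induced. Its level was 36.0, 23.6, 17.5, 28.4 and 31.2 CPM in vehicle, 51.2, 45.5, 40.7, 52.9 and 48.8 CPM at 10 μg/kg, and 43.0, 64.1, 39.3, 45.1 and 48.6 CPM at 30 μg/kg. Mice of both doses were above all vehicle mice and overlapped with each other. The induction was 1.75-fold at 10 μg/kg (log2 0.81, SE 0.21, adjusted p = 0.00276) and 1.76-fold at 30 μg/kg (log2 0.81, SE 0.21, adjusted p = 0.00118), by edgeR's test. Igfbp3 in liver is known to come largely from nonparenchymal cells. Summed stellate cell and fibroblast markers were 183 to 301 CPM in vehicle, 479 to 595 CPM at 10 μg/kg and 633 to 1426 CPM at 30 μg/kg, with 5 and 7 of 8 genes called higher and none of the 8 at 0 in either group. Summed endothelial markers were 202 to 263, 354 to 397 and 358 to 472 CPM, with 5 of 7 called higher at each dose and none at 0. The part of these cells in the Igfbp3 result was not tested.

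Igfbp1, an acute insulin-repressed binding protein gene, reached its highest levels at 30 μg/kg and varied widely between mice at most doses. The vehicle mice had 74.8, 52.9, 13.4, 111 and 202 CPM, the 10 μg/kg mice 194, 271, 123, 306 and 347 CPM, and the 30 μg/kg mice 172, 1695, 1307, 588 and 131 CPM. Replicates 1 and 5 at 30 μg/kg were within the vehicle range, and the other mice of that dose were above every mouse at vehicle and 10 μg/kg. Induction was 8.58-fold at 30 μg/kg (log2 3.10, SE 0.83, adjusted p = 0.00166, edgeR) and 3.36 on the log2 scale without replicate 1. At 10 μg/kg all 5 mice were above the vehicle mean, but the log2 change of 1.45 was not called (adjusted p = 0.16, edgeR). At 0.3 μg/kg a single mouse had 669 CPM against a group median of 78.8 CPM.

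Igfbp2, the most abundant member per length in vehicle, was the member called at the lowest dose. Vehicle levels were 558, 576, 601, 673 and 727 CPM, those at 1 μg/kg 205, 404, 201, 292 and 337 CPM, and those at 3 μg/kg 284, 253, 180, 281 and 359 CPM. Levels at 10 μg/kg were 132, 211, 316, 343 and 359 CPM, and those at 30 μg/kg were 59.99, 137, 47.1, 52.6 and 38.3 CPM. No mouse at 1 μg/kg or above reached a vehicle level, the 1, 3 and 10 μg/kg groups overlapped, and the 30 μg/kg group lay below them except for a single mouse at 137 CPM against 132 CPM at 10 μg/kg.

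The repression of Igfbp2 was of similar size over a 10-fold range of dose and larger at the highest. The log2 changes were -1.12 (SE 0.29, adjusted p = 0.0174) at 1, -1.21 (SE 0.29, adjusted p = 0.00436) at 3, -1.20 (SE 0.29, adjusted p = 0.00125) at 10 and -3.23 (SE 0.31, adjusted p = 3.09e-11) at 30 μg/kg, by edgeR's test. The call at 1 μg/kg was lost without replicate 1 (log2 -1.02, adjusted p = 0.0646) or replicate 3 of that dose (log2 -1.02, adjusted p = 0.0629), and the call at 30 μg/kg held without replicate 1 there (-3.19).

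Socs2, a STAT5-induced suppressor of cytokine signalling, did not pass the test at any dose. Its level was 11.5, 11.4, 10.2, 11.1 and 7.09 CPM in vehicle, 10.5, 48.0, 67.0, 11.6 and 2.11 CPM at 3 μg/kg, and 6.80, 14.1, 10.6, 5.84 and 6.41 CPM at 30 μg/kg. The mice at 3 μg/kg spanned a 31.7-fold range around the vehicle values, and the 30 μg/kg mice overlapped with vehicle. The log2 change was 1.44 at 3 μg/kg (adjusted p = 0.18) and -0.23 at 30 μg/kg (adjusted p = 0.788, 95% interval -1.52 to 1.05), by edgeR. The sign at 30 μg/kg turned with scaling to total counts alone (0.27).

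Cish, a second STAT5-induced inhibitor of the same family, was more scattered still. Its level was 9.55, 6.10, 0.518, 3.15 and 9.02 CPM in vehicle, 3.87, 25.3, 40.5, 26.6 and 1.99 CPM at 3 μg/kg, and 2.13, 3.66, 4.04, 1.87 and 10.6 CPM at 30 μg/kg. Its vehicle mice spanned an 18.4-fold range, and the largest range, 61.5-fold, was at 0.3 μg/kg. The log2 change was 1.79 at 3 μg/kg (adjusted p = 0.271) and -0.35 at 30 μg/kg (adjusted p = 0.783, 95% interval -2.24 to 1.54), by edgeR, and the latter was 0.12 with scaling to total counts alone. For both genes the intervals at 30 μg/kg include changes of more than 2-fold in either direction, and neither a rise nor a fall of that size can be told from these values.

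Hsd3b5, a male-specific hepatic target at the output of the axis, fell to near the limit of detection. Its level was 213, 178, 314, 295 and 194 CPM in vehicle, 117, 59.0, 81.9, 87.7 and 223 CPM at 1 μg/kg, and 54.0, 65.2, 135, 42.4 and 160.5 CPM at 3 μg/kg. At 10 μg/kg the mice had 0.72, 0.277, 0.0521, 0.471 and 10.6 CPM, and at 30 μg/kg 0.324, 0.0416, 0, 0 and 0 CPM. A single mouse at 1 μg/kg lay within the vehicle range, all mice at 3 μg/kg were below it, and no mouse at 10 μg/kg reached the lowest value at 3 μg/kg. The log2 changes of -1.07 at 1 (adjusted p = 0.286) and -1.39 at 3 μg/kg (SE 0.50, adjusted p = 0.0713) did not pass the test, and those of -6.65 (SE 0.65, adjusted p = 2.87e-10) at 10 and -11.66 (SE 0.91, adjusted p = 1.55e-13) at 30 μg/kg did, by edgeR. The SEs at 1 and 3 μg/kg rest on a spread between mice fitted over all 8 groups, including those at 10 and 30 μg/kg.

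Because so few reads were left, the fall of Hsd3b5 was also computed from summed counts. The 5 mice at 10 μg/kg had 220 counts in all, 105-fold below the vehicle mean with an exact Poisson 95% interval of 91.9 to 120, and 0.0521 CPM stands for 1 read. Replicate 5 held 190 of these counts, and without it the other 4 mice had 30 counts, 626-fold below vehicle (interval 439 to 928), with a fitted log2 change of -9.27. At 30 μg/kg the 5 mice had 8 counts, 3604-fold below with an interval of 1829 to 8347. Replicate 1 held 7 of the 8, and the 1 count left in the other 4 mice gives a ratio of 23672 with an interval of 4249 to 934999. These intervals cover counting error only, and they do not include the spread between mice. Hsd3b5 belongs to a family of near-identical genes, and reads that map to more than 1 copy were not counted, so its absolute level is uncertain.

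**Figure D2:**
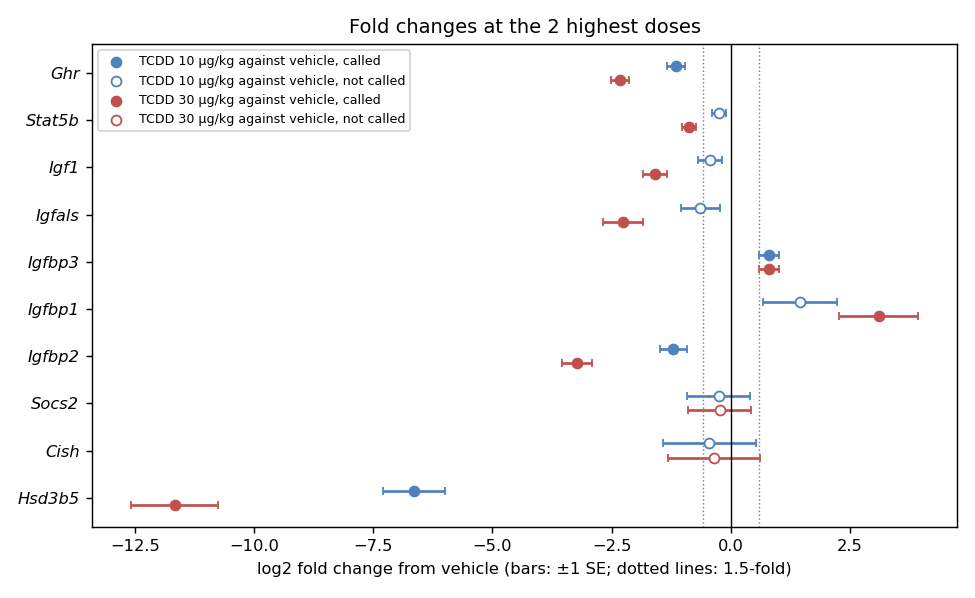
Log2 fold change from vehicle (x axis) of each gene at 10 μg/kg (blue) and 30 μg/kg (red), with bars of 1 SE from the edgeR fit, filled points for called changes and dotted lines at 1.5-fold (n = 5 mice per group). Hsd3b5 lies farthest left at -6.65 and -11.66, Igfbp1 and Igfbp3 lie to the right of 0, and Socs2 and Cish are unfilled circles near 0.

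In the comparison of the 2 highest doses, which leaves out the vehicle mice, 6 of 10 members were lower at 30 than at 10 μg/kg and none was higher, beside 21.1% of all genes called in either direction and 10.6% called lower. The log2 changes were -1.17 for Ghr, -0.64 for Stat5b, -1.16 for Igf1, -1.62 for Igfals, -2.02 for Igfbp2 and -5.01 for Hsd3b5. Igfbp3 did not move further (0.01, SE 0.21), and Igfbp1 was higher by 1.65 without passing the test (adjusted p = 0.108, edgeR). None of the 6 had groups that did not overlap, since replicate 1 or another 30 μg/kg mouse reached the 10 μg/kg range. A slope over ordered dose steps from 0 to 7 passed the test for 8 of 10 members, again all but Socs2 and Cish, beside 57.7% of all genes. Against vehicle, 5 of 10 members had groups that did not overlap at 10 μg/kg and 6 of 10 at 30 μg/kg, beside 23.0% and 37.6% of all genes.

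Ranked per kilobase of exon, so that genes can be set beside each other, Igfbp2 had the highest vehicle level at 340 ± 38.5 CPM per kb and Hsd3b5 followed at 154 ± 39.6 (SD, n = 5 each). Igfbp1 (59.6 ± 46.9), Ghr (56.3 ± 5.55), Igf1 (52.1 ± 8.78) and Igfals (45.8 ± 3.54 CPM per kb) formed a group in which neighbours differed by no more than the larger SD. Stat5b (18.6 ± 2.98), Igfbp3 (8.73 ± 2.27), Socs2 (1.08 ± 0.19) and Cish (0.88 ± 0.60 CPM per kb) were lower, and the last pair was not separated by its spread. At 30 μg/kg Igfbp1 ranked highest at 511 ± 457 CPM per kb, ahead of Igfbp2 at 36.3 ± 21.7, and Hsd3b5 ranked last at 0.047 ± 0.091.

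Replicate 1 at 30 μg/kg also differed from the rest of its group in cell type markers. Its summed hepatocyte markers were 60474 CPM against 29391 to 47533 CPM in the other mice, its summed macrophage markers 552 against 955 to 1498 CPM, and its summed stellate cell and fibroblast markers 633 against 1239 to 1426 CPM. Of the hepatocyte list 5 of 7 genes were called lower at 30 μg/kg with a median log2 change of -1.51, and of the macrophage list 8 of 8 were called higher with a median of 2.93. Sums of hepatocyte markers at 30 μg/kg, 29391 to 60474 CPM, did not overlap with vehicle. Most of the sum was Alb, with a mean of 83015 CPM in vehicle and 34527 CPM at 30 μg/kg. Hnf4a and Asgr1 fell less than the list's median, with means of 615 and 477 CPM and of 555 and 375 CPM. Apoa1 and Cps1 fell more, with means of 7412 and 809 CPM and of 4977 and 1042 CPM. Means were 3719 and 1304 CPM for Apob and 8537 and 2933 CPM for Ttr. Ghr, Igf1, Igfals and Hsd3b5 are chiefly hepatocyte genes, and the part of fewer hepatocytes in their falls was not tested. Without replicate 1, log2 changes at 30 μg/kg were -2.68 for Ghr, -0.90 for Stat5b and 0.85 for Igfbp3, and all 8 members remained called. The sample titles form an earlier and a later run of numbers, whose meaning the labels do not give, with 3 vehicle and 2 mice of 30 μg/kg in run 1 and 2 and 3 in run 2. Within run 1 and run 2 the log2 changes at 30 μg/kg were -2.01 and -2.62 for Ghr, -0.91 and -0.99 for Stat5b, -1.15 and -2.01 for Igf1, -1.49 and -3.24 for Igfals, 1.04 and 0.55 for Igfbp3, 4.30 and 2.07 for Igfbp1, and -2.56 and -3.96 for Igfbp2. Hsd3b5 changed by -10.34 in run 1, and in run 2 its 3 mice at 30 μg/kg had 0 counts, at least 2036-fold lower than the run's vehicle mice against a floor of 3 counts per library. Replicate 1 belongs to run 1. Igfals in run 1 and Igfbp3 and Igfbp1 in run 2 did not pass the test. Neutrophil, cholangiocyte, B cell and T cell markers were called higher for 4 of 4, 4 of 5, 3 of 4 and 2 of 4 genes tested at 30 μg/kg.

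Within a dose group, mice with more Ghr had more Igf1. Log2 CPM minus the mean of the dose group was compared over 40 mice for all 45 pairs of members, an analysis added after the data were seen, with permutation within dose groups (100000 draws, 2-sided) and Benjamini-Hochberg adjustment over the 45 pairs. Ghr and Igf1 had r = 0.797 (p = 7e-05, adjusted 0.00315) and rho = 0.741 (permutation p = 1e-05, the smallest these draws can give, adjusted 0.00045). The coefficient r was 0.598 without replicate 1 at 30 μg/kg (permutation p = 0.00033) and 0.625 without the 2 mice farthest from the median of Ghr. It was 0.965 within run 1 (19 mice) and 0.607 within run 2 (21 mice) of the title numbers. Run 1 held only 2 mice at 30 μg/kg, replicate 1 and replicate 2, which lay far apart in both genes. The value of 0.965 therefore includes replicate 1, and the coefficient of run 1 without that mouse was not computed.

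A pair of further relations passed the adjustment by both coefficients. Mice with more Igfbp1 had less Igfals (r = -0.488, adjusted permutation p = 0.00975, rho = -0.634, adjusted 0.00337, and r = -0.515 without the 2 farthest mice), with -0.563 and -0.550 in the 2 runs. Mice with more Igfbp1 had more Stat5b (r = 0.528, adjusted permutation p = 0.00975, rho = 0.498, adjusted 0.0351, and r = 0.509 without the 2 farthest mice), with 0.426 and 0.623 in the runs. Without replicate 1 at 30 μg/kg these were -0.529 and 0.554. Socs2 and Cish, both known STAT5 targets, had r = 0.45 (permutation p = 0.0246, adjusted 0.184) and rho = 0.364 (adjusted 0.315), which did not pass, and r = 0.31 without the 2 farthest mice. Igfbp1 and Stat5b had r = 0.749 over the 30 mice up to 3 μg/kg and -0.112 over the 10 mice at the 2 highest doses, a difference that was not tested.

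**Figure D3:**
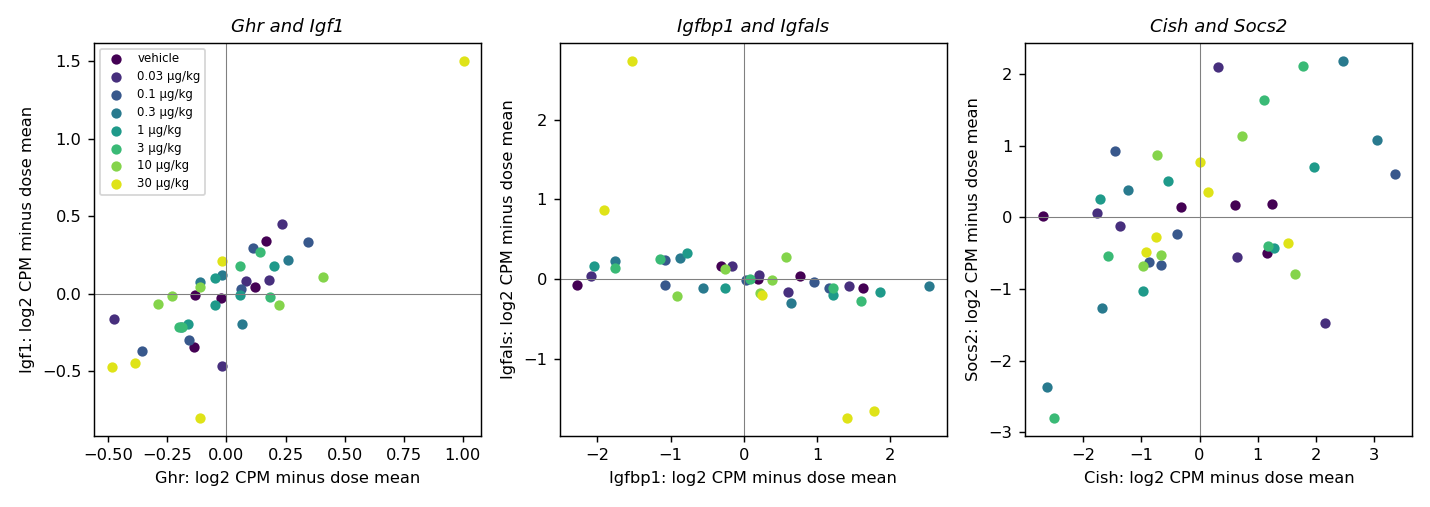
Each point is 1 mouse, coloured by dose, and both axes give log2 CPM minus the mean of the mouse's dose group, for Ghr and Igf1 (left), Igfbp1 and Igfals (centre) and Cish and Socs2 (right), n = 40 mice. Ghr and Igf1 rise together with replicate 1 at 30 μg/kg at the upper right corner, Igfals falls with Igfbp1 with its widest spread at 30 μg/kg, and the right panel is loose (r = 0.45).

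The genes whose 7 log2 changes from vehicle lay closest to those of Igf1, among 9298 genes outside the axis, were Fn1 (root mean square difference 0.047), Fxyd1 (0.050) and Pzp (0.069). Fn1, the fibronectin gene, changed by -1.52 and Pzp, an alpha-2-macroglobulin relative, by -1.52 on the log2 scale at 30 μg/kg, beside -1.60 for Igf1. Nearest to Socs2 were Ifi47 (0.388), Mb21d2 (0.418) and Lars2 (0.419), all at a larger distance. None of the Socs2 changes passed the test, and their SEs were 0.653 to 0.665. Its neighbours therefore match changes that were not told from 0.

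Of 36 other genes of growth hormone and IGF signalling, 33 passed the filter and 21 of those were called at 30 μg/kg, 8 higher and 13 lower, with a median log2 change of -0.39 beside 0.03 over all genes. Of all genes tested, 42.1% were called at this dose, 23.2% higher and 18.9% lower. Scaling to total counts alone turned this split to 13 higher and 7 lower. Receptors divided: Igf1r (1.11, adjusted p = 0.00238) and Igf2r (1.38) were higher, while Insr (-0.81) and the prolactin receptor gene Prlr (-1.50) were lower on the log2 scale. Stat5a (-1.37), Irs1 (-0.95) and Igfbp4 (-1.16) were lower at this dose, and Jak2, the kinase that phosphorylates STAT5, was not called (0.08, SE 0.15). Summed hepatocyte markers were lower at this dose, and those of macrophages and stellate cells were higher. What part cell composition had in the changes of this list was not tested. At 10 μg/kg 3 of 33 were higher and 1 was lower, beside 13.6% and 8.13% of all genes.

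The largest rises on that list were Htra1, Igfbp7 and Socs3. Htra1, a secreted protease gene, went from 1.89, 2.92, 1.55, 1.959 and 2.72 CPM in vehicle to 45.2, 94.5, 142, 248 and 90.7 CPM at 30 μg/kg (log2 5.81, SE 0.36), with no overlap. Igfbp7 rose by 1.52 and Socs3, a cytokine-induced inhibitor, by 1.41 on the log2 scale (adjusted p = 0.0314, edgeR), the latter call being lost without vehicle replicate 1 or 4 or without replicate 2 or 5 at 30 μg/kg. Socs3 was also called at 3 μg/kg (log2 1.71, adjusted p = 0.0461, edgeR), where replicate 2 had 82.2 CPM against 4.72 to 14.0 CPM in the others, and the change without that mouse was 0.32 (adjusted p = 0.752).

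The largest falls were in liver transcription factors that set sex-biased and metabolic programmes. Onecut1 fell by 3.05 and Foxa1 by 1.69 on the log2 scale at 30 μg/kg, and Onecut1 by 3.99 without replicate 1 of that dose. Bcl6, a male-biased repressor that competes with STAT5, had 14.1, 16.0, 105, 127 and 52.8 CPM in vehicle and 42.9, 5.70, 5.72, 12.2 and 5.31 CPM at 30 μg/kg, so the groups overlapped and its log2 change of -2.14 carried an SE of 0.76 (adjusted p = 0.0157, edgeR). Without vehicle replicate 4 it was -1.72 (adjusted p = 0.0606). It was -3.12 when replicate 1 at 30 μg/kg was left out.

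Male-biased genes, the wider set to which Hsd3b5 belongs, were lower together. Of 21 on the list 20 passed the filter, and 12 were called lower at 10 μg/kg and 20 at 30 μg/kg, with none higher, beside 8.13% and 18.9% of all genes called lower. Their median log2 change was -1.02 and -3.91 at these doses, and -4.52 at 30 μg/kg without replicate 1, with all 20 still called lower. Elovl3, a fatty acid elongase gene, went from 490, 661, 1139.9, 788 and 805 CPM in vehicle to 117, 112, 15.7, 73.2 and 114 CPM at 10 μg/kg and 2.78, 0.458, 0.191, 0.0794 and 0.548 CPM at 30 μg/kg. No mouse of one group overlapped with another, and the log2 change at 30 μg/kg was -9.95 (SE 0.59), or -11.24 without replicate 1. The other largest falls were the urinary protein gene Mup7 (-9.90) and Serpina1e (-8.45), both of multigene families, in which reads that map to several copies were not counted. Mup7 had 2.50 CPM in replicate 1 at 30 μg/kg and 0 to 0.0843 CPM in the other mice, and without replicate 1 it was at least 3959-fold lower than vehicle against a floor of 3 counts per library. Serpina1e had 46.6 CPM in replicate 1 and 1.41 to 14.3 CPM in the others, and its log2 change without replicate 1 was -9.90. Susd4 was called from 3 μg/kg, where its level of 5.37 to 14.3 CPM was below 16.4 to 34.8 CPM in vehicle (log2 -1.63, SE 0.34, adjusted p = 0.00117, edgeR).

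Female-biased genes were mostly higher. Of 28 on the list 22 passed the filter, and 14 were called higher and 1 lower at 10 μg/kg, and 15 higher and 2 lower at 30 μg/kg, beside 13.6% and 23.2% of all genes called higher. The median log2 change was 1.51 and 1.81. When replicate 1 at 30 μg/kg was left out, 23 passed the filter, 16 were called higher and 5 lower, and the median was 1.54. A gene passes the filter through the group where it is high, so genes silent in males enter this list only when they rise. The RNA is of whole tissue, in which markers of other cells also rose. Summed macrophage markers were 157 to 217 CPM in vehicle and 552 to 1498 CPM at 30 μg/kg. Summed cholangiocyte markers were 37.2 to 48.4 and 67.5 to 333 CPM. The part of cell composition in the changes of the female-biased list was not tested. Sult2a2 and Sult2a1, sulfotransferase genes with 0 counts in all vehicle mice, were at least 73.2-fold and 61.9-fold higher at 30 μg/kg against a floor of 3 counts per library, and the list's median was 1.81 with both at that bound.

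Some female-biased genes were called at lower doses. Fmo2 (0.89) and Abcd2 (1.01) were called at 1 μg/kg, and Cyp2b13 (3.61), Cyp2b10 (1.49) and Tox (0.91) at 3 μg/kg on the log2 scale. With each mouse of the groups compared left out in turn, Cyp2b13 stayed called in 10 of 10 fits, Tox in 8, Cyp2b10 in 6, Abcd2 in 5 and Fmo2 at 1 μg/kg in 4, with changes from 0.72 to 1.13 for Fmo2.

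Not all female-biased genes followed that direction. Hamp2 was lower at 3 μg/kg (log2 -1.52) and at 30 μg/kg (-3.91), Cyp2a22 was lower at 3 μg/kg (-1.95) and not called at 30 μg/kg (-0.81), and Cyp17a1 was lower at 30 μg/kg (-0.99, adjusted p = 0.0314, edgeR), a call that 6 of 10 fits with a mouse left out kept. Hamp2 at 3 μg/kg kept its call in 7 of 10 such fits. Atp6v0d2 was lower at 3 μg/kg (-1.83, and -1.11 without vehicle replicate 5, adjusted p = 0.171, edgeR) and higher at 30 μg/kg (2.76, and 3.48 without vehicle replicate 5). Cyp2b10 was higher at 10 μg/kg (2.21) and not called at 30 μg/kg (-0.36), where replicate 1 had 42.1 CPM against 5.66 to 9.53 CPM in the other mice. Without that mouse Cyp2b10 was called lower (-1.34, adjusted p = 0.00422, edgeR), and so was Cyp2a22 (-1.16, adjusted p = 0.0225).

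**Figure D4:**
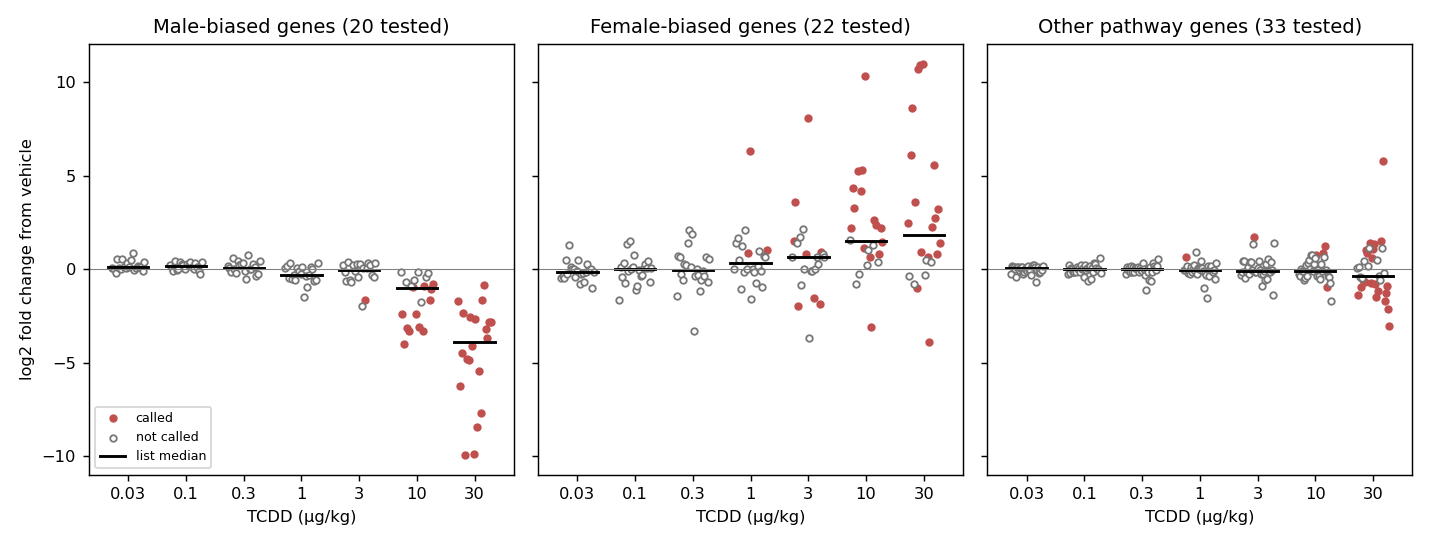
Log2 fold change from vehicle (y axis) of each gene of 3 lists at each TCDD dose in μg/kg (x axis, ordered), with red points for called genes, open points for the others and a black line at the list median; 2 female-biased genes without counts in vehicle are drawn at their fitted values, which are not bounds. The male-biased list drops to a median of -3.91 at 30 μg/kg, the female-biased list rises to 1.81, and the other pathway genes spread to both sides.

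Promoters of the members were searched for the letters of motifs, and stretches of Igfals, Cish, Igfbp1 and Igfbp2 are shown. RefSeq windows of GRCm38.p6, from 250 bases before to 50 bases after a start site, matched 9 of 10 members with 14 windows. Socs2 had no window and was not searched. The STAT motif TTCNNNGAA, which is its own reverse complement, was found in windows of Igfals and Cish only among the members searched. It was in 3 of 14 windows, beside 8.30% of 32851 windows. The AhR core GCGTG, searched on both strands, was found for 7 of 9 members: Ghr, Stat5b, Igf1, Igfbp3, Igfbp1, Igfbp2 and Hsd3b5. It was in 9 of 14 windows, beside 32.4% of all windows. CAAAACA, the letters of the insulin response sequence bound by FOXO factors, searched on both strands, was found in Igfbp1 only. It was in 1 of 14 windows, beside 6.28% of all windows. Igfals, which fell at 30 μg/kg, and Cish, which was not called at any dose, both hold the STAT motif. Igfbp1, higher at 30 μg/kg, and Igfbp2, lower there, both hold the AhR core. The part of these motifs in the changes was not tested. Each stretch below runs from 250 bases before to 20 bases after a start site on the plus strand, with motif letters in capitals: the STAT motif in Igfals and Cish, the insulin response letters followed by the AhR core in Igfbp1, and the AhR core on either strand in Igfbp2. They lie at chr17:24877981-24878250 for Igfals, chr9:107296409-107296678 for Cish, chr11:7197537-7197806 for Igfbp1 and chr1:72824230-72824499 for Igfbp2.
Igfals: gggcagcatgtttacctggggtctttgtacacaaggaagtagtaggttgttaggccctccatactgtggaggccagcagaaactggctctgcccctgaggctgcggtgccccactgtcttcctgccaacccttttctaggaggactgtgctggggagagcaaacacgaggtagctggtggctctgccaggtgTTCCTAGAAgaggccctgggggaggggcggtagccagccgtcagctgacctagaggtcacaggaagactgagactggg
Cish: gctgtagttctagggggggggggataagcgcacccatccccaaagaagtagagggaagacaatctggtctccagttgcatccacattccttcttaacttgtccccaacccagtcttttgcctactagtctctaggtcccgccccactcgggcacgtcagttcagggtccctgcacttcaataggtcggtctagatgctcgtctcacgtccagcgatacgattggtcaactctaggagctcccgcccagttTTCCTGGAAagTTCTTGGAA
Igfbp1: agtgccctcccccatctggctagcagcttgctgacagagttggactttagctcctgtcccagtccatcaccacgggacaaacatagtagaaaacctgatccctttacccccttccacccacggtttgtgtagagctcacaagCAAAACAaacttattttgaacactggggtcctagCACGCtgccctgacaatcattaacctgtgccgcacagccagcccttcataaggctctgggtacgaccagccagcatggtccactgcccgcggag
Igfbp2: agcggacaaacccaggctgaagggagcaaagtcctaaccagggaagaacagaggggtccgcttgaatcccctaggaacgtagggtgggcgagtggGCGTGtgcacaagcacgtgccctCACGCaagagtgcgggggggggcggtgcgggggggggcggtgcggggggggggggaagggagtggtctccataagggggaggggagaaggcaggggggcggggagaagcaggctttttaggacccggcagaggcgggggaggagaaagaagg
In these stretches the first base of the STAT motif lay 58 bases before the start site in Igfals and at the start site in Cish, with another 11 bases after it. The insulin response letters of Igfbp1 began 108 bases before the start site and its AhR core 74 bases before. In Igfbp2 the AhR cores began 155 and 132 bases before. A further window of Igfals held the STAT motif 236 bases before its start site, and a further window of Igfbp2 the AhR core 3 bases before. A match gives letters in a window and does not show binding.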

How the data were processed

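Paired-end libraries (150 bp) of liver RNA from 40 mice were assigned to 8 groups of 5 by the sample labels. Replicates were numbered here within each group, in the order of the numbers in the sample titles. The authors deposited raw counts per gene from STAR, and the unstranded column was used. The submitters' processing notes list FastQC 0.11.7, Trimmomatic 0.39 and STAR 2.7.3a and the builds GRCm39 and mm10 without their roles; the annotation is not given in the sources used here. A normalized table that the authors also deposited was not used. Reads that were unmapped (2.47% to 11.3%), mapped to several places (5.24% to 7.43%), in no gene (3.34% to 7.36%) or ambiguous (4.84% to 5.90%) were left out of library sizes, which lowers genes with near-identical copies. Counts carry no strand, so reads over overlapping genes fall into the ambiguous class.

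Tests used edgeR 4.0.16 (R 4.3.3): filterByExpr (minimum count 10, total 15), TMM scaling, a quasi-likelihood fit of 8 group means over 40 libraries, and Benjamini-Hochberg adjustment over 15373 genes within each comparison. A gene was called at an adjusted p under 0.05 and at least 1.5-fold. The 1.5-fold limit is the study's, whose posterior probability was replaced by edgeR's test. CPM used TMM-scaled library sizes, log2 CPM a prior count of 2, and the floor was 3 counts per library. Errors are SDs over mice or SEs of the fit. For each gene the fit shares its spread between mice over the 8 groups, so scatter at a given dose widens the SE at others. Genes were named through a GENCODE M21 table, which also gave exon lengths; promoters came from RefSeq windows of GRCm38.p6. Replicate pairs differed by a chi-square of at least 10.2 per degree of freedom, so none was a repeat.

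The members and lists were chosen with earlier results of these data known. Named beside the members were the 3 largest called rises and 3 largest called falls of each list at 30 μg/kg with a mean count of 100 or more in whichever group was higher, and list genes called at 3 μg/kg or lower. Some genes that this rule names are counted in their lists but not reported here. Jak2, Igf1r, Igf2r, Insr, Prlr, Stat5a, Irs1 and Igfbp4 fall outside that rule and were named after their values were seen. The correlations between members were added after the data were seen. The fit was tested on simulated data. Alternatives were DESeq2 1.42.0, relative log expression (RLE) size factors, total counts alone, no filter, a filter at a mean of 50 counts, no fold threshold, vehicle and the dose alone, title-number run as covariate or each run alone, dose on a linear scale, and each mouse left out.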

Additional observations from a re-analysis of the deposited data

Results flagged for a closer look

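In 4 of the 80 dose groups of the members a single mouse lay far from the other 4 by Dixon's ratio (critical value 0.71 for 5 mice), and chance flags about 1 group in 20. Igfbp3 at 0.1 μg/kg was highest in replicate 4 (37.7 CPM, ratio 0.824). Socs2 in vehicle was lowest in replicate 5 (7.09 CPM, ratio 0.758). Cish at 0.1 μg/kg was highest in replicate 5 (34.0 CPM, ratio 0.779). Hsd3b5 at 30 μg/kg was highest in replicate 1 (0.324 CPM, ratio 0.768), the mouse that also stood apart on the first principal component.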

How the results depend on the processing

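Apart from fits with a mouse left out, 486 of 531 values of single genes kept their direction and their side of the threshold, and 111 of 119 counts stayed within 1.5 times. Of the other single-gene values 38 were weaker, 2 were stronger and 5 were reversed. In the fit of vehicle and the dose alone, 2 members were called at 1 μg/kg and 2 at 3 μg/kg. In run 1 alone 0 members were called at 1 μg/kg, 2 at 3 μg/kg and 2 between 30 and 10 μg/kg, and 12 other pathway genes at 30 μg/kg. In run 2 alone 0 members were called at 1 μg/kg and 0 at 3 μg/kg. Fewer mice entered the runs. Signs turned with total counts alone for Socs2 (0.27), Cish (0.12) and Cyp2b10 (0.082) at 30 μg/kg, in run 1 alone for Cyp2b10 at 30 μg/kg (0.10), and in run 2 alone for Socs2 at 10 μg/kg (0.30). The causes of these turns were not tested. Scaling to total counts alone also moved the calls of all genes at 30 μg/kg from 3567 higher and 2909 lower to 6402 and 1559. With each mouse left out in turn, 0 to 1 members were called at 1 μg/kg, 1 to 2 at 3 μg/kg (2 without replicate 5 of that dose), 4 to 4 at 10 μg/kg, 8 to 8 at 30 μg/kg and 5 to 6 between 30 and 10 μg/kg. Other pathway genes called at 30 μg/kg numbered 18 to 21, male-biased genes 20 to 20, and female-biased genes 16 to 21. DESeq2 called 7 members at 30 μg/kg and gave Igfals no adjusted p there or at 10 μg/kg. The filter at a mean of 50 counts gave no value for genes it removed. With 15.5 M counts or more per library, the level of Hsd3b5 is limited by depth at 30 μg/kg. It is also limited at 10 μg/kg, where 4 mice had 30 counts in all. No paired analysis was possible because the labels give no replicate numbers. Those used here follow the title numbers and pair no mice across doses.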
